A study of Arabidopsis thaliana with 24 samples.

Results

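The SWEET genes numbered 9 to 17 encode membrane sugar carriers, and their transcript levels were followed in Arabidopsis thaliana roots across 8 groups of genotype and time. The members were the probe sets naming a single gene with a symbol from SWEET9 to SWEET17, with the brightest probe set kept for each gene. Of the 9 genes, 8 were measured, each by 1 probe set. A gene is called measured here if a probe set names it alone in the annotation used, which holds for 13264 genes. Of the 22714 probe sets tested, 8721 name no gene in that annotation, so an unmeasured gene may still have a probe set. SWEET15 carries its other name SAG29 in the probe table and was matched through the gene's synonym in the TAIR10.1 gene table. SWEET12 has no probe set naming it alone in the tables used here and was not analysed here.

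RNA came from whole roots of about 200 pooled seedlings per replicate and was hybridised to Affymetrix ATH1 arrays, on which each probe set gives 1 intensity. The genotypes were the double mutant nlp6nlp7, the single mutants nlp7 and nlp6, and the reference line Col-0. Every genotype had 3 arrays at 35 min after 25 mM KNO3 and 3 arrays at 0 min, which makes 24 arrays. All groups, those at 0 min included, had spent 9 days with 12.5 mM ammonium succinate as nitrogen source. The proteins NLP6 and NLP7 belong to the NIN-like family and switch on genes when nitrate arrives, and the mutant alleles are not given in the sources used here. The comparisons ask how nitrate addition altered each transcript and whether loss of NLP6, NLP7 or both altered it. Potassium was never given without nitrate, so time, handling and potassium cannot be told apart from nitrate. In whole roots, fewer cells of a type and less RNA per cell cannot be told apart either.

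SWEET proteins let sugars pass a membrane down their concentration gradient, in either direction and without an energy source. In Arabidopsis, SWEET9 to SWEET15 are known as plasma membrane carriers that favour sucrose, and several of them release sucrose from cells toward the phloem, seeds or nectar. SWEET16 and SWEET17 sit in the vacuolar membrane, where SWEET17 moves fructose in and out of the vacuole of root cells and SWEET16 moves glucose, fructose and sucrose.

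The intensities had been scaled per array, with array medians between 163 and 196. Neither NLP6 nor NLP7 has a named probe set here, so the mutated genes could not be checked by name. Replicate 1 of nlp7 stood apart from the other nlp7 arrays. Its deviations from the group means correlated at 0.469 between the 2 times, against -0.008 to 0.338 for the other replicates of each genotype, and its array weights of 0.477 at 35 min and 0.408 at 0 min were the lowest of the 24. The tests of the members that involve nlp7 were therefore also computed without it. Group means, their orders and correlations, and all results for other genes include it. For the labelled tissue, 1 of 8 root markers was measured: EXPA7, an expansin of root hair cells, lay between 361 and 649 on all arrays. Of 5 markers of green shoot tissue, 3 were measured, with summed intensities of 289 to 387 in nlp6nlp7, 469 to 565 in nlp7, 302 to 531 in nlp6 and 416 to 441 in Col-0 at 35 min. At 0 min those sums were 326 to 428 in nlp6nlp7, 414 to 620 in nlp7, 363 to 523 in nlp6 and 338 to 444 in Col-0. None of the 4 measured marker genes passed the test in any comparison, and their part in the results was not tested.

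Averaged over the 4 genotypes, nitrate treatment was followed by higher SWEET16 and SWEET13 and by lower SWEET11 and SWEET14 transcript. The test was limma's moderated test on log2(intensity + 26) over all 24 arrays, with Benjamini-Hochberg adjustment over the 22714 probe sets and adjusted p under 0.05 as the threshold. At that threshold 4 of the 8 members passed, against 21.3% of all probe sets. Of the members 2 were called higher, against 6.99% of all probe sets, and 2 lower, against 14.3%. The median log2 change of the members was 0.02 and that of all probe sets was -0.05. Over all probe sets, 1588 were called higher and 3257 lower, but with each array centred on its median 2417 were called higher and 1861 lower.

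**Figure D1:**
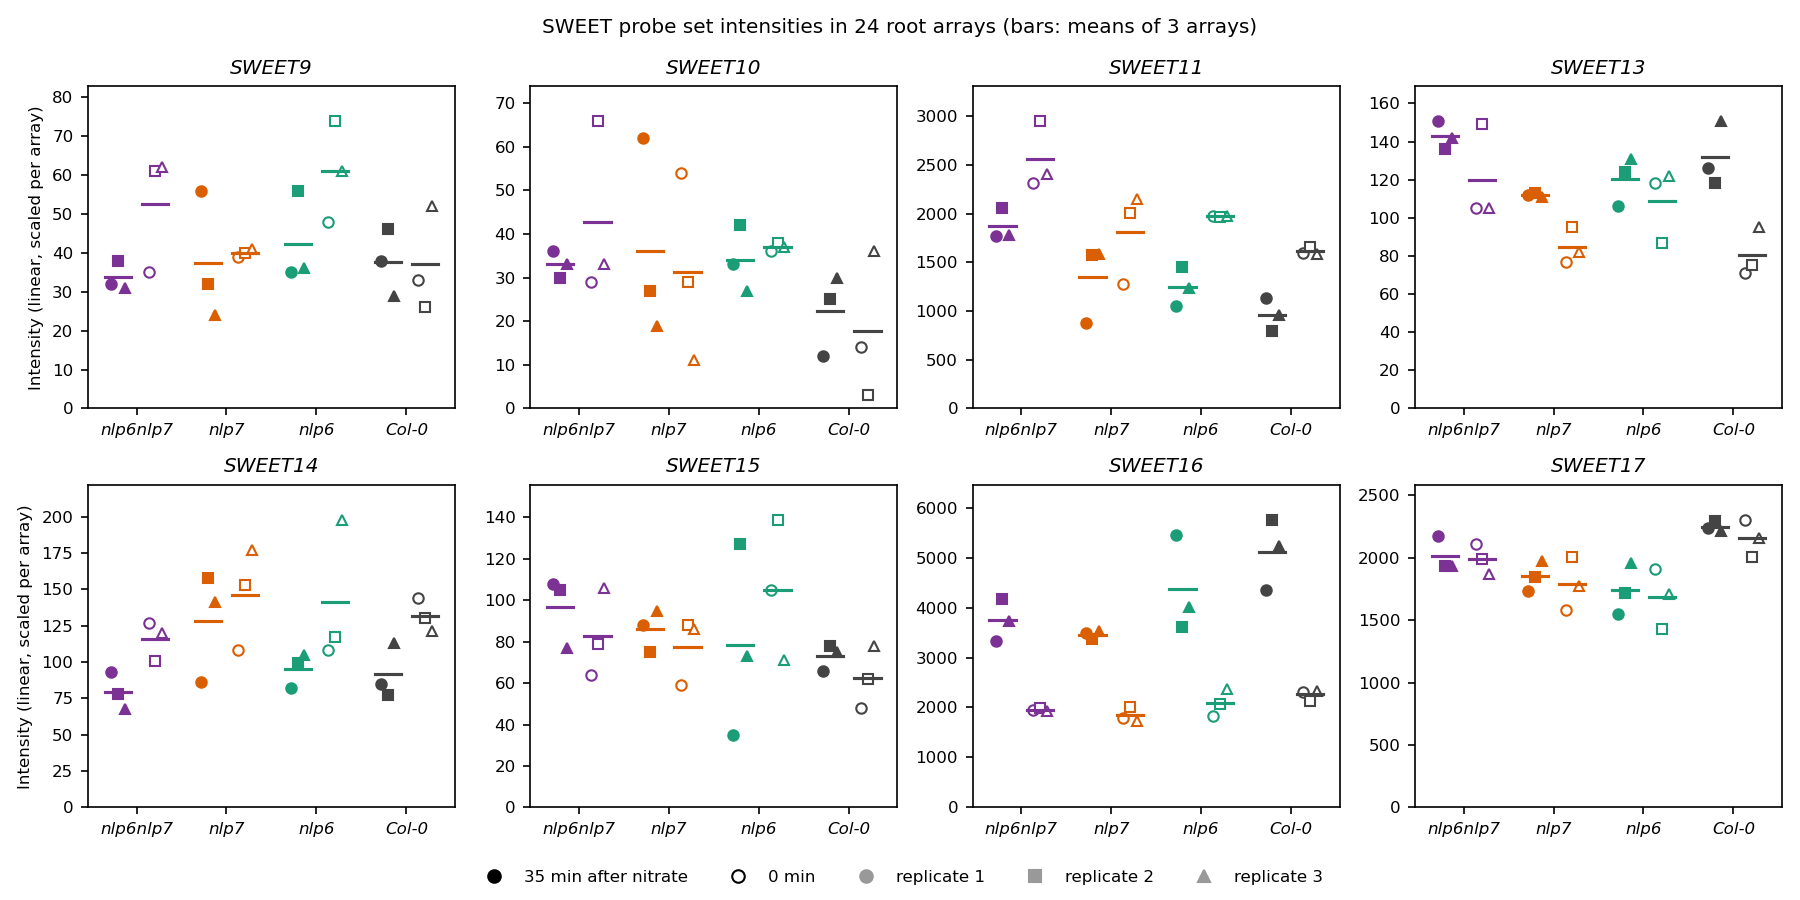
Intensity of each measured SWEET probe set on all 24 arrays, on a linear axis from 0, with nlp6nlp7, nlp7, nlp6 and Col-0 from left to right. Filled points are arrays at 35 min, open points arrays at 0 min, marker shapes give the replicate number, and bars are means of 3 arrays. The 12 arrays at 35 min lie at 3332 to 5761 for SWEET16, all above the 12 arrays at 0 min.

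The strongest change belonged to SWEET16 (probe set 258421_at, locus AT3G16690), the vacuolar carrier of several sugars. In nlp6nlp7 roots SWEET16 read 3332, 4169 and 3723 at 35 min, against 1950, 1993 and 1929 at 0 min. In nlp7 roots it read 3484, 3363 and 3527 at 35 min, against 1796, 2004 and 1721 at 0 min. Both mutants therefore had all arrays at 35 min well above all arrays at 0 min. In nlp6 roots the SWEET16 values were 5454, 3620 and 4016 at 35 min, against 1827, 2066 and 2362 at 0 min. In Col-0 roots they were 4355, 5761 and 5230 at 35 min, against 2315, 2126 and 2339 at 0 min. The lowest of the 12 arrays at 35 min, 3332, exceeded the highest of the 12 at 0 min, 2362, and 3.06% of all probe sets separated the times in this way.

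The mean SWEET16 response was 1.01 ± 0.07 on the log2 scale (SE), a 2.01-fold increase with limma adjusted p of 3.42e-10. By genotype the fold increase was 1.89 in nlp6nlp7 (adjusted p 0.000107), 1.87 in nlp7 (0.000148), 2.06 in nlp6 (1.24e-05) and 2.24 in Col-0 (3.22e-06). SWEET16 passed the test in all 4 genotypes. It was the only member to pass in nlp6nlp7 and in nlp7, where 5.41% and 5.12% of all probe sets passed. Without replicate 1 of nlp7 the response there was 0.88 ± 0.17, with adjusted p of 0.00444.

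Although SWEET16 rose in every genotype, its level at 35 min was lower in nlp7 than in Col-0. The nlp7 arrays at 35 min read 3363 to 3527 and the Col-0 arrays 4355 to 5761, without overlap, and the log2 difference was -0.55 ± 0.13 (0.68-fold, adjusted p 0.0473). SWEET16 was the only member called in that comparison, where 1.25% of all probe sets were. The call did not hold without Col-0 replicate 2 or 3 or without any one of the 3 nlp7 arrays at 35 min, with adjusted p of 0.0931 to 0.259, or without nlp7 replicate 1 at both times, with adjusted p of 0.108. It was also lost with quantile normalization (adjusted p 0.0686), with the pseudocount of 3 (0.063) and in a fit of only the arrays compared (0.199), and 10 of 17 alternatives lost it in all. In nlp6nlp7 at 35 min the arrays also lay below all Col-0 arrays, and the log2 difference of -0.45 ± 0.13 had adjusted p of 0.0555. This SWEET16 difference was called with centring, the high pseudocount, either filter on dim probe sets, trended and robust variances, or array weights. It was also called without Col-0 replicate 1 at 35 min, and adjusted p in these settings was 0.0191 to 0.0375. Quantile normalization, the low pseudocount, the replicate block, only the arrays compared and other single arrays left out did not call it.

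At 0 min the SWEET16 differences were smaller and none passed the test. They were -0.20 in nlp6nlp7 (adjusted p 0.427), -0.29 in nlp7 (0.562) and -0.12 in nlp6 (0.76) on the log2 scale. A contrast over both times, added after the separate times had been seen, gave -0.32 ± 0.09 in nlp6nlp7 (adjusted p 0.0289, beside 12.6% of all probe sets called), -0.42 ± 0.09 in nlp7 (0.0253, beside 1.68% of all probe sets called) and -0.18 ± 0.09 in nlp6 (0.373). The nlp7 value over both times was no longer called without Col-0 replicate 1 or 3 or nlp7 replicate 1 at 0 min, without Col-0 replicate 2 or 3 or nlp7 replicate 1 or 2 at 35 min (adjusted p 0.05 to 0.0758), or without nlp7 replicate 1 at both times (0.0684). The nlp6nlp7 value was no longer called without replicate 1 or 3 of Col-0 or of nlp6nlp7 at 0 min, or without Col-0 replicate 2 or 3 or nlp6nlp7 replicate 1 or 3 at 35 min (0.0515 to 0.0807).

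In the order of the 8 group means, SWEET16 ran from 5115 ± 710 in Col-0 at 35 min (SD, n = 3) through nlp6, nlp6nlp7 and nlp7 at 35 min down to 1840 ± 147 in nlp7 at 0 min. Only 1 pair of neighbours in that order had arrays that did not overlap, namely nlp7 at 35 min and Col-0 at 0 min.

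SWEET17 (245524_at, AT4G15920), the vacuolar fructose carrier, did not pass the response test in any genotype. In nlp6nlp7 roots SWEET17 read 2174, 1935 and 1932 at 35 min, against 2113, 1992 and 1870 at 0 min. In Col-0 roots its values were 2239, 2290 and 2216 at 35 min, against 2305, 2005 and 2158 at 0 min. The times overlapped in both genotypes. The mean response was 0.05 on the log2 scale, with a 95% confidence interval of -0.07 to 0.16 and adjusted p of 0.659.

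Between genotypes, SWEET17 was lower in nlp6 roots than in Col-0 roots. The nlp6 arrays read 1552, 1714 and 1960 at 35 min, against 2239, 2290 and 2216 in Col-0. At 0 min the nlp6 arrays read 1912, 1429 and 1708, against 2305, 2005 and 2158 in Col-0. All 6 nlp6 arrays thus lay below all 6 Col-0 arrays. Lower arrays without overlap within each time, a looser condition than all 6 below all 6, were found in nlp6 for 1.36% of all probe sets. The log2 difference was -0.37 ± 0.11 at 35 min (adjusted p 0.308) and -0.36 ± 0.11 at 0 min (0.224), and neither passed at a single time. Over both times, the contrast added later, it was -0.36 ± 0.08 (0.78-fold, adjusted p 0.0409), and 0.559% of all probe sets were called in that comparison. That call held without nlp6 replicate 1 at 0 min or nlp6 replicate 3 at 35 min. It did not hold without any one of the Col-0 arrays or of the other 4 nlp6 arrays (adjusted p 0.0503 to 0.127), with each array centred on its median (0.0839), or in a fit of only the arrays compared (0.141).

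At each time the SWEET17 group means of nlp6nlp7 and nlp7 lay between those of nlp6 and Col-0. In nlp7 roots SWEET17 read 1732, 1842 and 1974 at 35 min and 1581, 2006 and 1773 at 0 min. Over both times the log2 difference from Col-0 was -0.14 ± 0.08 in nlp6nlp7 (adjusted p 0.302) and -0.28 ± 0.08 in nlp7 (0.0867), or -0.21 ± 0.08 in nlp7 without replicate 1 (0.239). No neighbours in the order of the SWEET17 group means, from 2248 ± 37.9 in Col-0 at 35 min to 1683 ± 242 in nlp6 at 0 min, had arrays apart from each other.

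Among the plasma membrane carriers, SWEET11 (252327_at, AT3G48740) had the highest signal; in leaves it is known to release sucrose from phloem parenchyma cells for loading. In nlp6nlp7 roots SWEET11 read 1776, 2057 and 1785 at 35 min, against 2317, 2958 and 2407 at 0 min. In Col-0 roots it read 1131, 797 and 961 at 35 min, against 1599, 1657 and 1588 at 0 min. Each of these genotypes had its 3 arrays at 35 min below its 3 arrays at 0 min, and all 6 nlp6nlp7 arrays were above all 6 Col-0 arrays. In nlp6 roots the SWEET11 values were 1055, 1451 and 1237 at 35 min, against 1980, 1962 and 1977 at 0 min. In nlp7 roots they were 880, 1577 and 1582 at 35 min, against 1283, 2008 and 2154 at 0 min. Replicate 1 gave the lowest nlp7 value at both times, and the nlp7 times overlapped through it.

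The mean SWEET11 response was -0.57 ± 0.10 on the log2 scale (0.67-fold, adjusted p 0.000243). SWEET11 fell by 0.66 in nlp6 (adjusted p 0.0417) and by 0.74 in Col-0 (0.0205) on the log2 scale, and 10.3% and 10.2% of all probe sets were called in those responses. The response was -0.44 in nlp6nlp7 (adjusted p 0.298) and -0.44 in nlp7 (0.329), where it was not called. The Col-0 call was lost without any one of the Col-0 arrays except replicate 1 at 35 min, with adjusted p of 0.0533 to 0.121. The nlp6 call was lost without any one of the nlp6 arrays except replicate 2 at 35 min, with adjusted p of 0.0883 to 0.176, and also with each array centred on its median (0.111) or with the pseudocount of 3 (0.0538).

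With all arrays in the fit, nlp6nlp7 was the mutant whose SWEET11 estimate lay farthest from that of Col-0 at each time. At 35 min its mean intensity was 1873 ± 160 in nlp6nlp7 roots and 963 ± 167 in Col-0 roots (SD, n = 3 each). The log2 difference was 0.95 ± 0.20, a 1.93-fold higher level, with adjusted p of 0.00575. SWEET11 was the only member called there in the main fit, where 6.22% of all probe sets were called. It passed under all 16 alternative settings tried for that comparison. At 0 min the mean was 2561 ± 347 in nlp6nlp7 and 1615 ± 37.1 in Col-0, and the log2 difference of 0.65 ± 0.20 had adjusted p of 0.0635. That difference was called with quantile normalization, the high pseudocount, either filter on dim probe sets, the replicate block or trended and robust variances. Array weights and a fit of only the arrays compared also called it, with adjusted p of 0.00957 to 0.0463 over all these settings. It was not called with centring, the low pseudocount or any single array left out. Over both times the difference was 0.80 ± 0.14 (1.74-fold, adjusted p 0.000743), called under all 22 alternatives. Higher arrays without overlap within each time, a looser condition than all 6 above all 6, were found in nlp6nlp7 for 6.26% of all probe sets.

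In the single mutants, SWEET11 lay between Col-0 and nlp6nlp7 in its group means at each time. Over both times the log2 difference from Col-0 was 0.28 ± 0.14 in nlp7 (adjusted p 0.387) and 0.33 ± 0.14 in nlp6 (0.285). Without replicate 1 of nlp7 the nlp7 difference was 0.54 ± 0.10 (adjusted p 0.0136), and at 35 min alone it was 0.71 ± 0.14 (0.0171), against 0.44 ± 0.20 (0.408) with that replicate. The call in nlp7 thus rests on leaving out 1 replicate. In the order of the SWEET11 group means, nlp6nlp7 at 0 min stood above nlp6 at 0 min without overlap, and Col-0 at 0 min stood above nlp7 at 35 min without overlap.

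SWEET13 (248467_at, AT5G50800), a sucrose carrier that also transports gibberellins, had a low signal, brighter than 41.3% of all probe sets. In nlp6nlp7 roots SWEET13 read 151, 136 and 142 at 35 min, against 105, 149 and 105 at 0 min. In nlp7 roots SWEET13 read 112, 113 and 111 at 35 min, against 77, 95 and 82 at 0 min. The nlp7 arrays at 35 min were all above those at 0 min, while 1 nlp6nlp7 array at 0 min reached the range of 35 min. In nlp6 roots the values were 106, 124 and 131 at 35 min, against 118, 87 and 122 at 0 min. In Col-0 roots the SWEET13 values were 126, 118 and 151 at 35 min, against 71, 75 and 95 at 0 min. The Col-0 times did not overlap, and the nlp6 times did.

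The mean SWEET13 response was 0.31 ± 0.06 on the log2 scale (1.24-fold, adjusted p 0.00112). In Col-0 it was 0.57 ± 0.13 (1.48-fold, adjusted p 0.0048), and this call held under all 16 alternatives in which SWEET13 was tested. It was 0.23 in nlp6nlp7 (adjusted p 0.437), 0.32 in nlp7 (0.218) and 0.12 in nlp6 (0.648). In nlp6nlp7 against Col-0 at 0 min, SWEET13 was the only member called in the main fit, beside 6.41% of all probe sets. SWEET11 was called there only under alternatives, as given above. SWEET13 was higher in nlp6nlp7 by 0.45 ± 0.13 on the log2 scale (1.36-fold, adjusted p 0.0428). Quantile normalization gave 0.30 with adjusted p of 0.246, centring each array gave 0.36 with 0.122, and the call was also lost without Col-0 replicate 1 or 2 or without nlp6nlp7 replicate 2 or 3 (adjusted p 0.0521 to 0.23). Trended and robust variances gave adjusted p of 0.0608 and a fit of only the arrays compared 0.144, so that 8 of 15 alternatives lost the call. At 35 min the difference was 0.10 (adjusted p 0.765).

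SWEET14 (254090_at, AT4G25010), like SWEET13 a carrier of sucrose and gibberellins, changed in the opposite direction. In nlp6nlp7 roots SWEET14 read 93, 78 and 68 at 35 min, against 127, 101 and 120 at 0 min. In nlp7 roots SWEET14 read 86, 158 and 141 at 35 min, against 108, 153 and 177 at 0 min. The times were apart in nlp6nlp7 and overlapped in nlp7. In nlp6 roots the SWEET14 values were 82, 99 and 105 at 35 min, against 108, 117 and 198 at 0 min. In Col-0 roots the SWEET14 values were 85, 77 and 113 at 35 min, against 144, 130 and 121 at 0 min. Those times were apart in both genotypes, although no SWEET14 response of a single genotype passed the test.

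The mean SWEET14 response was -0.36 ± 0.10 on the log2 scale (0.78-fold, adjusted p 0.0117). Quantile normalization gave -0.30 with adjusted p of 0.0667 and centring each array gave -0.29 with 0.0564, so the call depends on the scaling. By genotype the log2 response was -0.43 in nlp6nlp7 (adjusted p 0.309), -0.17 in nlp7 (0.822), -0.43 in nlp6 (0.221) and -0.43 in Col-0 (0.232), none of which passed. Against Col-0, the SWEET14 differences at single times ran from -0.15 in nlp6nlp7 at 0 min to 0.37 in nlp7 at 35 min (adjusted p 0.503), or 0.59 in nlp7 at 35 min without replicate 1 (0.156).

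SWEET15, SWEET9 and SWEET10 were not called in any of the 17 comparisons with all arrays weighted equally, and their signals were low. SWEET15 (245982_at, AT5G13170), a sucrose carrier known from senescing leaves and from seeds, ranged over all arrays from 35 to 139 with a median of 78. Its mean response was 0.02 on the log2 scale, with a 95% confidence interval of -0.24 to 0.28 and adjusted p of 0.949. SWEET9 (266201_at, AT2G39060), known for sucrose release in nectaries, ranged from 24 to 74 with a median of 38.5. Its mean response was -0.20, with an interval of -0.396 to -0.0019 and adjusted p of 0.157. SWEET10 (248496_at, AT5G50790), known from the transition to flowering in the shoot apex, ranged from 3 to 66 with a median of 31.5. Its mean response was 0.02, with an interval of -0.29 to 0.32 and adjusted p of 0.964. Values of SWEET9 and SWEET10 lay close to the 26 added before the log, and the files used here hold no detection call. Under some alternatives SWEET10 and SWEET9 were called. With array weights SWEET10 was higher in nlp6nlp7 than in Col-0 by 0.75 on the log2 scale at 0 min (adjusted p 0.0355) and by 0.54 over both times (0.0285), and without Col-0 replicate 3 at 0 min by 0.64 over both times (0.0462). Without nlp7 replicate 1 at 35 min the mean response of SWEET9 was -0.25 (adjusted p 0.0479).

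**Figure D2:**
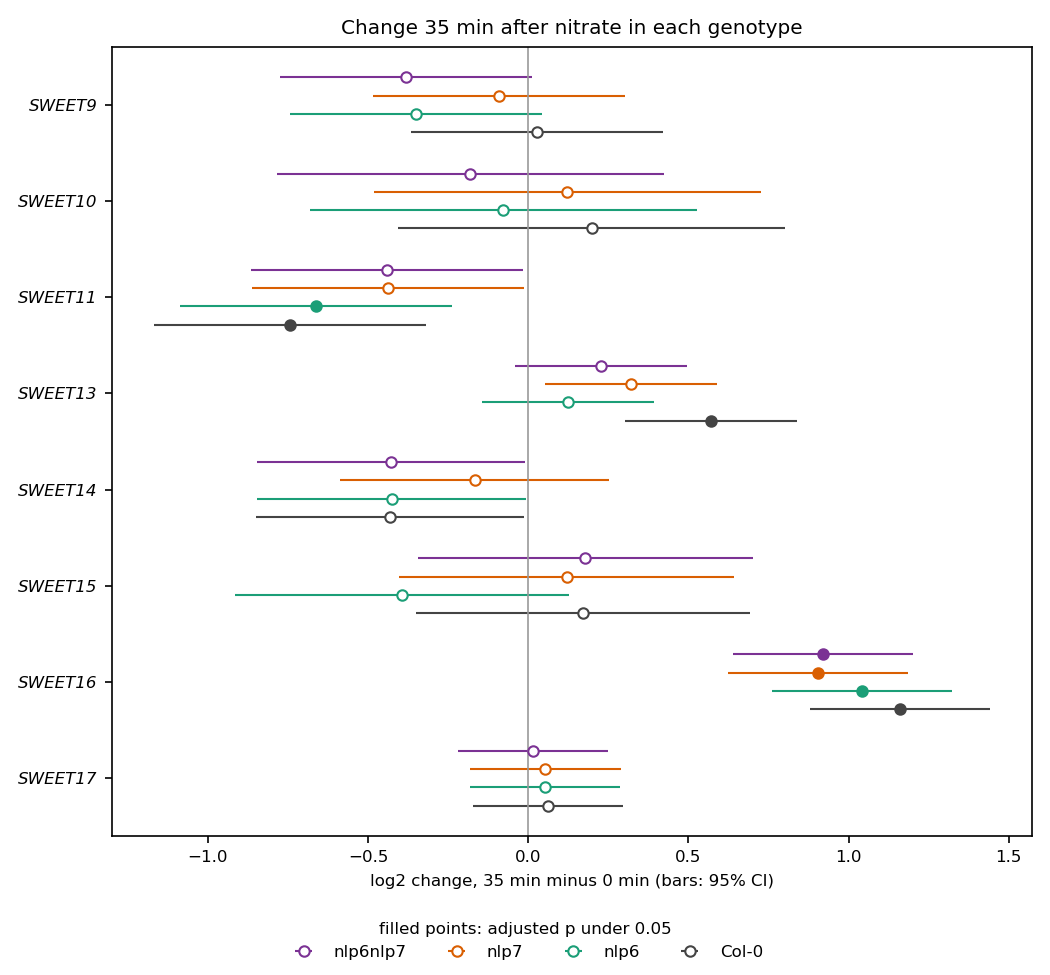
Log2 change at 35 min against 0 min of each SWEET gene, with 95% confidence intervals from the limma model, for nlp6nlp7, nlp7, nlp6 and Col-0 from top to bottom within each gene. Filled points passed adjusted p under 0.05. SWEET16 passed in all 4 genotypes, SWEET11 in nlp6 and Col-0, and SWEET13 in Col-0.

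The responses themselves were then compared between genotypes, as the response in a mutant minus that in Col-0. None of the 8 members passed limma's test of that difference in any mutant, where 0.528% of all probe sets passed for nlp6nlp7, 0.264% for nlp7 and 0.00881% for nlp6. At an unadjusted p under 0.05 the counts of members were 0 for nlp6nlp7 beside 8.11% of all probe sets, 0 for nlp7 beside 6.07%, and 1 for nlp6 beside 5.02%. That 1 was SWEET13 in nlp6, with a difference of -0.45, an interval of -0.83 to -0.07 and adjusted p of 0.986. For SWEET16 the difference was -0.24 in nlp6nlp7 with an interval of -0.64 to 0.16, -0.26 in nlp7 with -0.65 to 0.14, and -0.12 in nlp6 with -0.52 to 0.28. For SWEET11 it was 0.30 in nlp6nlp7 with an interval of -0.30 to 0.90, 0.31 in nlp7 with -0.29 to 0.91, and 0.08 in nlp6 with -0.52 to 0.68. The intervals of SWEET16 and SWEET11 all include 0, and that of SWEET13 in nlp6 lies below 0 without passing after adjustment. A call in one genotype and not in another was therefore not shown to be a difference between them.

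**Figure D3:**
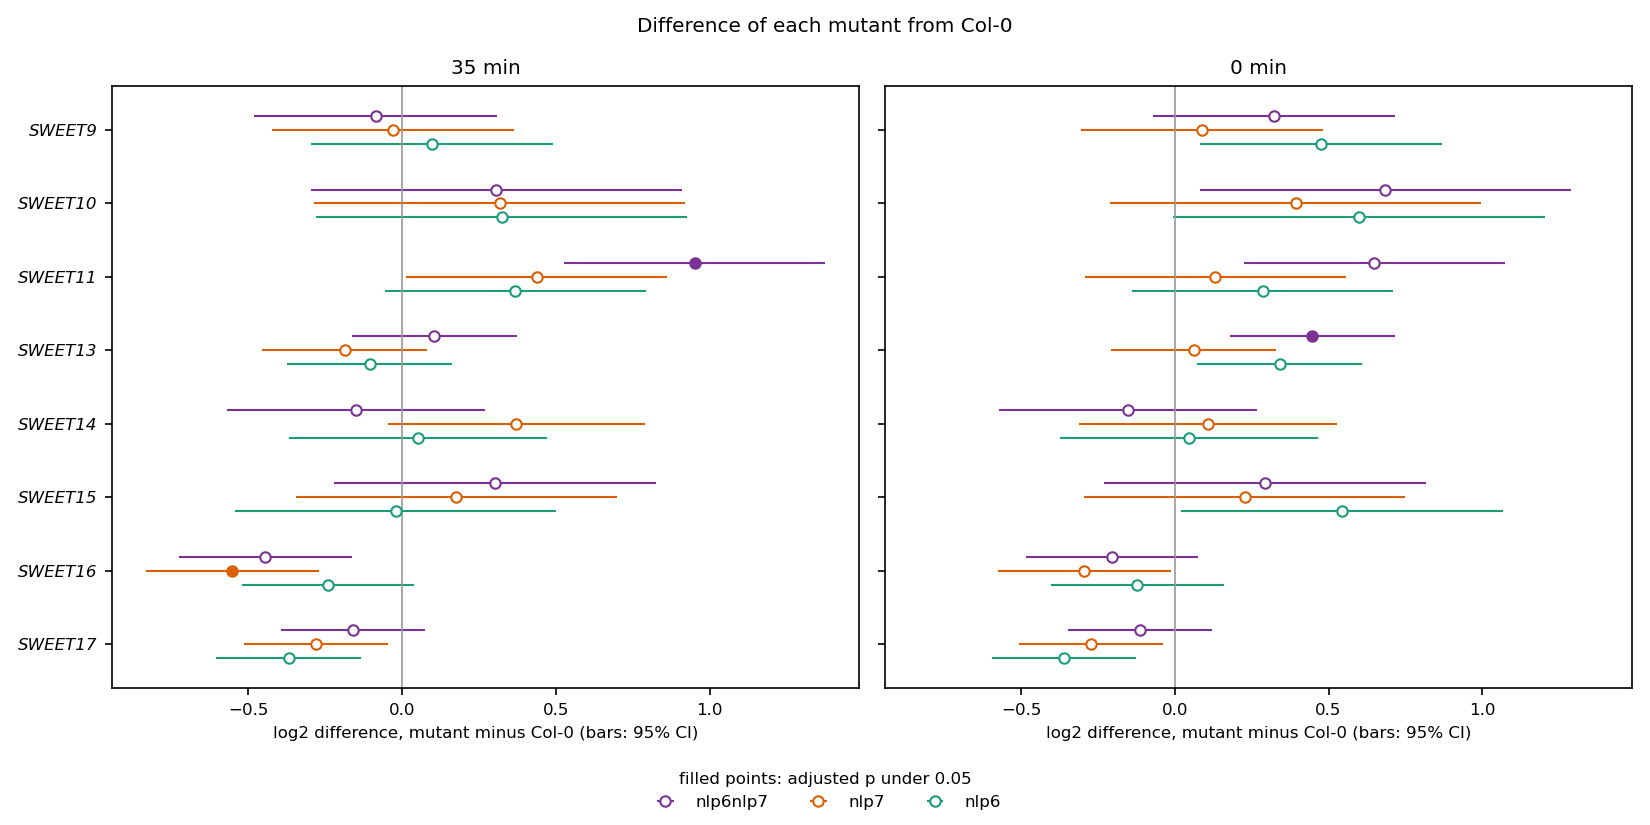
Log2 difference of nlp6nlp7, nlp7 and nlp6 (top to bottom within each gene) from Col-0 at 35 min (left) and 0 min (right), with 95% confidence intervals from the limma model. Filled points passed adjusted p under 0.05. These are SWEET11 in nlp6nlp7 and SWEET16 in nlp7 at 35 min, and SWEET13 in nlp6nlp7 at 0 min.

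At single times, nlp6nlp7 differed from Col-0 in 1 of the 8 members at 35 min, beside 6.22% of all probe sets, and in 1 at 0 min, beside 6.41%. In nlp7 the count was 1 at 35 min, beside 1.25%, and 0 at 0 min, beside 0.185%. In nlp6 it was 0 at 35 min, beside 0.022%, and 0 at 0 min, beside 0.0881%. At an unadjusted p under 0.05, limma gave 2 members in nlp6nlp7 at 35 min, beside 17.3% of all probe sets, and 3 at 0 min, beside 20.4%. In nlp7 the unadjusted count was 3 at 35 min, beside 11.8%, and 2 at 0 min, beside 8.52%. In nlp6 the unadjusted count was 1 at 35 min, beside 8.88%, and 4 at 0 min, beside 11.7%. The comparisons with Col-0 share the Col-0 arrays, so their values are not independent of each other.

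SWEET10 and SWEET13 are direct neighbours on chromosome 5 of the TAIR10.1 gene table, with 0 genes between them. SWEET13 passed the mean response test at 0.31, and SWEET10 had 0.02. Across the 8 group means SWEET13 and SWEET14 ran in opposite directions, with Pearson's r of -0.848. SWEET16 had r of -0.804 with SWEET11 and 0.68 with SWEET13. These correlations describe 8 means that share arrays and times.

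Among 829 other named genes of above-median intensity that varied over the 8 group means, those most like SWEET16 in those means were AT5G02230 (r 0.992), AT3G52360 (0.99) and AT4G23730 (0.989). SWEET11 was most like AT1G13670 (r 0.977), ATGSTF13 (0.95) and AT1G75710 (0.945). For SWEET13 these were XTH18 (0.932), AT1G25400 (0.926) and AT1G72140 (0.923), and for SWEET14 they were ATSBT5.2 (0.959), AT3G26760 (0.954) and AT1G63720 (0.936).

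Beside the members, the 8 SWEET genes numbered 1 to 8 were all measured, and none was called in any of the 4 responses or in the mean response. Their signals were low, brighter than 15.4% to 44.5% of all probe sets, so the lack of calls does not show a lack of response. Among all probe sets, 5.12% to 10.3% were called in the 4 responses and 21.3% in the mean response. The median mean response of SWEET1 to SWEET8 was -0.03 on the log2 scale, against 0.02 for SWEET9 to SWEET17. Of 10 listed sugar transporters of the vacuolar membrane, 6 were measured. In the mean response 2 of them were called higher, beside 6.99% of all probe sets, and 1 lower, beside 14.3%. TMT1, which loads glucose and fructose into the vacuole, read 2063, 1939 and 1822 in nlp6nlp7 and 1688, 1489 and 1667 in Col-0 at 35 min, against 2263, 2373 and 2380 in nlp6nlp7 and 2051, 2073 and 2183 in Col-0 at 0 min. All of these arrays at 35 min were lower than the arrays of the same genotype at 0 min. Its mean response was -0.28 ± 0.04 (adjusted p 1.59e-05), opposite in sign to that of SWEET16 in the same membrane. The genes that rose were SFP1, a sugar porter, by 0.40 ± 0.11 (adjusted p 0.00874) and TMT3, a relative of TMT1, by 0.35 ± 0.12 (0.0449). Calls on genes that are no members are given from the main fit alone. TMT3 had a low signal, brighter than 32.4% of all probe sets. By genotype, SFP1 was called higher in nlp6 and Col-0 and not in nlp7 or nlp6nlp7. Its mean intensity was 299 at 35 min and 302 at 0 min in nlp6nlp7, against 810 and 474 in Col-0. No difference of its response from Col-0 was called in any mutant.

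SFP1 also differed between the genotypes. At 35 min it read 270, 337 and 291 in nlp6nlp7, against 746, 810 and 873 in Col-0, a log2 difference of -1.36 ± 0.21 (adjusted p 0.000265). In that comparison 6.22% of all probe sets were called. SWEET16 at 35 min differed by -0.45 between the same groups and SWEET11 by 0.95. Of 16 listed genes of sucrose cleavage 2 were measured. Of these, AT1G62660 rose by 0.37 ± 0.06 in the mean response (adjusted p 6.48e-05), beside 6.99% of all probe sets called higher. None of the 4 measured of 14 listed monosaccharide transporters was called in any comparison, where 0.00881% to 21.3% of all probe sets were called. Their signals were low, brighter than 7.4% to 33.2% of all probe sets, so this does not show a lack of response. None of 9 listed sucrose transporters was measured.

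**Figure D4:**
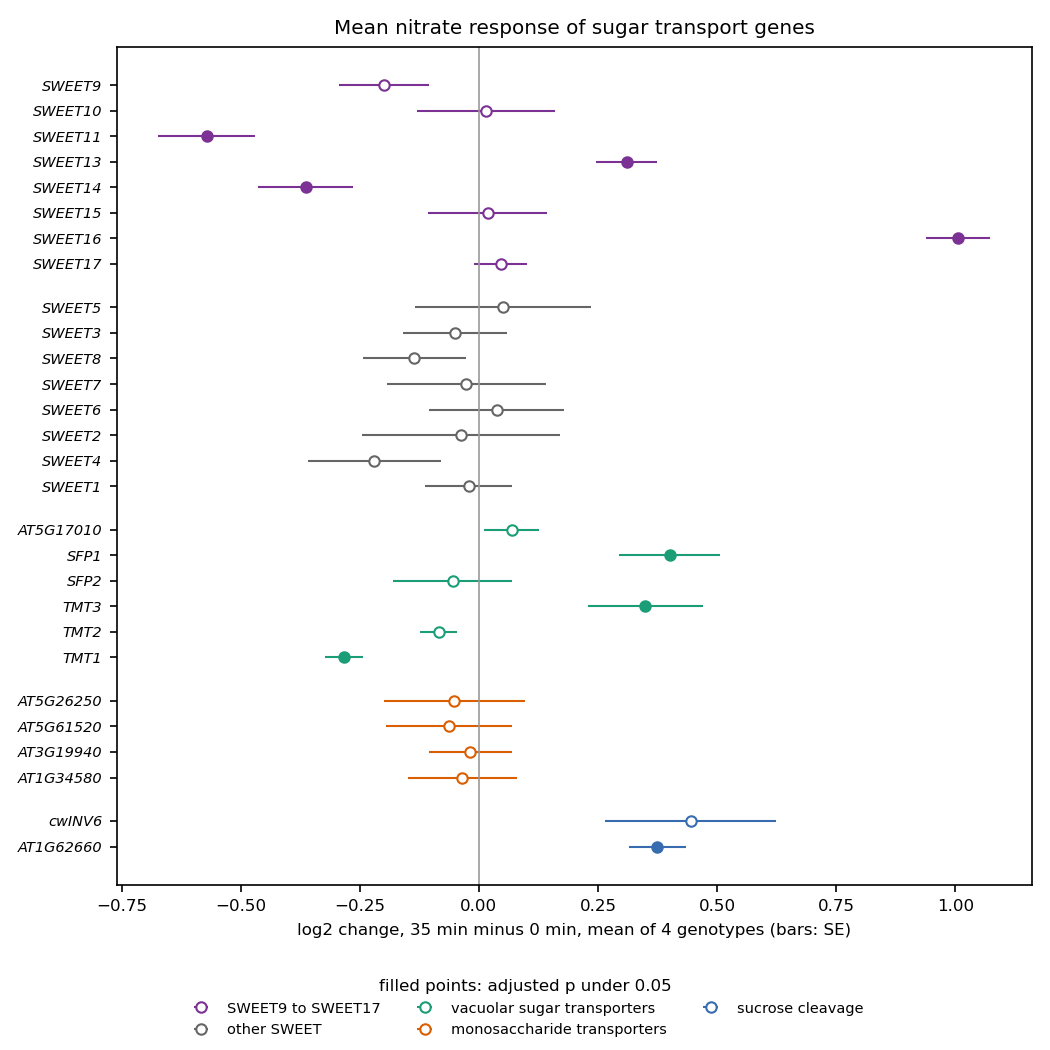
Mean log2 response over the 4 genotypes (35 min minus 0 min, bars are standard errors from the limma model) of SWEET9 to SWEET17 and of the measured genes of 4 related lists, from top to bottom. Filled points passed adjusted p under 0.05. SWEET16 lies farthest to the right at 1.01 and SWEET11 farthest to the left at -0.57.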

How the data were processed

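The table deposited by the authors holds 1 intensity per probe set and array, as whole numbers on a linear scale from 1 to 36178. Each array had already been scaled: leaving out its top and bottom 2%, its mean lay between 500.1 and 500.5. The sources used here name no summarising software. Of 22776 probe sets, 62 controls were left out and the rest tested without a filter. By the annotation used, 13490 name 1 gene, 503 several and 8721 none. The precision is set by the 3 arrays of each group, as arrays have no read depth.

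A group-means model was fitted to log2(intensity + 26), the 20th percentile of all values, with limma 3.58.1 in R 4.3.3, and contrasts were adjusted by the Benjamini-Hochberg method. A fold change on this scale understates that of dim probe sets. The labels call the samples of a group biological repeats. Members and gene lists were chosen with earlier results of these data known. All measured members are named, together with the 3 genes most like each member called in the planned contrasts, and list genes past the threshold. Figures were drawn with matplotlib 3.10.9.

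Alternatives were quantile normalization, centring each array, pseudocounts of 3 and 103, leaving out the dimmest 25% or 50% of probe sets, a replicate block, trended and robust variances, array weights, only the arrays compared, each array left out in turn, and nlp7 replicate 1 left out at both times. The contrasts over both times, and pairs of same-numbered arrays of a genotype as a block, were added after the data were seen.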

Additional observations from a re-analysis of the deposited data

How the results depend on the processing

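No called value of SWEET9 to SWEET17 changed sign under the alternatives tried. For all other genes, SWEET1, TMT2 and TMT3 included, only the main fit is given, so how far their calls hold is not shown. SWEET16 and SWEET11 kept their mean response calls under all 35 alternatives (log2 0.96 to 1.08 and -0.63 to -0.50) and SWEET13 under all 34 (0.20 to 0.39). SWEET14 kept its call under 32 of 34. For the counts of members called, leaving out the dimmest 50% of probe sets left 3 members and 2 calls in the mean response. In the response in nlp6 the count was 1 with centring and with the low pseudocount, and 1 to 2 with single arrays left out. In nlp6nlp7 against Col-0 at 35 min, centring, the high pseudocount, both filters on dim probe sets, trended variances and array weights each gave 2, and single arrays left out gave 1 to 2. In nlp7 against Col-0 at 35 min, quantile normalization, the low pseudocount and only the arrays compared gave 0, and single arrays left out gave 0 to 1. In nlp6nlp7 at 0 min, centring gave 0, the high pseudocount and the 25% filter gave 2, array weights gave 3, and single arrays left out gave 0 to 1. Over both times, nlp6 had 0 with centring or only the arrays compared and 0 to 1 with single arrays left out. For nlp7 over both times the high pseudocount, the 50% filter and trended variances gave 2 and single arrays left out 0 to 1. For nlp6nlp7 over both times array weights gave 4 and single arrays left out 1 to 3, and the 25% filter gave 3.

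Deviations of same-numbered arrays had a median correlation of 0.011 over 84 pairs (-0.177 to 0.469), against -0.004 for other numbers. For the 12 pairs of 1 genotype the median was 0.102 (-0.008 to 0.469), with 11 above 0 and 6 above 0.1. The main fit assumed no pairing because the labels do not say that a number marks a shared batch. With the replicate number as a block, 2 members were called in nlp6nlp7 at 0 min and 0 in nlp7 at 35 min, where SWEET16 had adjusted p of 0.0655. With the pairs within each genotype as a block, chosen after seeing the data, 2 members instead of 1 were called in the responses in nlp7 and in nlp6nlp7. SWEET11 was the added one, with -0.44 in both (adjusted p 0.0448 in nlp7 and 0.0423 in nlp6nlp7), and no response difference was called. The alternative of a dimmer probe set gave no value, since each member has 1. Low signal limits SWEET9, SWEET10 and SWEET15. The cause of these shifts was not tested.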

Other observations

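The genes of this paragraph were chosen after their values were seen. SWEET2, a vacuolar sugar carrier known from roots, stood out in nlp7 replicate 1. It read 232 at 35 min and 361 at 0 min in that replicate, against 44 to 84 on the other 22 arrays. SWEET3 was also highest there, at 133 at 35 min and 148 at 0 min. SWEET1, a glucose carrier of the plasma membrane, read 172, 164 and 139 in nlp6nlp7 and 131, 125 and 140 in Col-0 at 35 min, and 193, 222 and 154 in nlp6nlp7 and 106, 129 and 114 in Col-0 at 0 min. Over both times its log2 difference between nlp6nlp7 and Col-0 was 0.40 ± 0.13 (adjusted p 0.045), beside 12.6% of all probe sets called. It was the only call among SWEET1 to SWEET8 in the 17 comparisons.

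TMT2, another vacuolar monosaccharide carrier, read 369, 381 and 414 in nlp6nlp7 at 0 min, against 495, 472 and 462 in Col-0. The log2 difference was -0.28 ± 0.08 (adjusted p 0.0361), beside 6.41% of all probe sets called. Over both times it was -0.19 ± 0.06 (0.0239), beside 12.6% called. TMT1 differed the other way in that comparison over both times, by 0.21 ± 0.06 (adjusted p 0.0196).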
